A study of Homo sapiens with 6 samples.

Results

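Molecular chaperones bind unfolded or partly folded proteins and help them reach or keep their working shape. The genes described here are the chaperones and heat shock factors of the lung adenocarcinoma cell line A549, which is of human origin, sorted by the part of the cell in which their proteins work. Members are the gene symbols of the HSP70, HSP110, HSP90, small heat shock, J protein (DNAJ), TRiC and BAG families, with HSPD1, HSPE1, HSF1 and HSF2. The symbols were taken by name patterns that use no expression value, in families picked with earlier results of these data known. The patterns found 90 symbols, of which 6 antisense or divergent transcripts were left out, so that 84 of the 19876 genes in the table were members. By the known site of the protein, 56 were placed in the cytosol and nucleus, 14 in the endoplasmic reticulum (ER) and 10 in mitochondria. HSF1 and HSF2 were kept apart as regulators, and HSPB11 and DNAJC22 were left without a compartment.

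All libraries came from wild-type A549 cells. One group received rhTR11B, and the control group received phosphate-buffered saline (PBS). Dose, time and the full name of rhTR11B are not in the labels. TR11B is an entry name for osteoprotegerin (TNFRSF11B), which binds and blocks ligands of the TNF family. There were 3 libraries per group, labelled biological replicates. Separate cultures are not mentioned, so each p-value measures the spread among these libraries only, and that spread may be technical.

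The libraries held 36315751 to 38148838 counts. Of 7 markers listed for epithelial and A549 cells, 4 were found among the counted genes, and AKR1B10, AKR1C1 and ALDH1A1 were not. The epithelial keratin genes KRT8, KRT18 and KRT7 stood at group means of 361 to 924 CPM (counts scaled to library size). The epithelial surface gene EPCAM had 0 to 10 counts per library. The leukocyte marker PTPRC was not found either. Among the markers of other cells that were read, PECAM1, VWF, DCN and PDGFRB had 0 to 2 counts and CDH5 4 to 13, and the collagen gene COL1A1 had 99 to 203 (3.07 CPM on average with PBS and 4.73 with rhTR11B, edgeR adjusted p = 0.0511). On the first principal component (36.4% of the variance) the PBS libraries lay at -18.4 to -5.96. The rhTR11B replicates 1 and 2 lay at 2.66 and 8.63, and the third rhTR11B library stood apart at 25.7. Its 13 mitochondrially encoded genes took 10.4% of its counts, against 7.88% and 8.75% in the other rhTR11B libraries and 6.63% to 7.71% with PBS. The part of these differences in the results below was not tested. The compartment medians and some genes are also given without that library, and the other results only with it.

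Chaperones work as separate sets in each compartment. In the cytosol, HSP70 proteins cycle on and off their clients with J proteins and nucleotide exchange factors such as HSP110 and BAG proteins, HSP90 completes the folding of kinases and receptors, and the TRiC ring folds actin and tubulin. The ER has its own HSP70 (HSPA5, also called BiP) and HSP90 (HSP90B1, also called GRP94), and the mitochondrial matrix has HSPA9 and the HSPD1 and HSPE1 chamber. Cytosolic chaperone genes are known targets of HSF1, which binds heat shock elements made of alternating GAA and TTC units, and the ER genes are known targets of ATF6, which acts with NF-Y on the ER stress element.

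Matches to these 2 kinds of element lie in the promoters of some members, and a part of these stretches is shown here from RefSeq, build GRCh38.p14. A window from 250 bases before to 50 bases after the start was on hand for 73 of the 84 members. Further starts of the same gene were not searched. The letters searched on both strands were GAANNTTCNNGAA for 3 heat shock units, GAANNTTC and TTCNNGAA for 2 units (both lie within the longer form), and the ER stress element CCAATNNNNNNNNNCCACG. Only bases before the start are printed, 5′ to 3′ on the gene's strand, with the matches in capitals. The first is HSPA8, the most abundant HSP70, on the minus strand at chr11:123062167-123062378, which has 2 matches to the 3-unit form, and the next are the near-identical HSPA1A and HSPA1B on the plus strand at chr6:31815425-31815456 and chr6:31827621-31827652, each with a 2-unit match.
HSPA8: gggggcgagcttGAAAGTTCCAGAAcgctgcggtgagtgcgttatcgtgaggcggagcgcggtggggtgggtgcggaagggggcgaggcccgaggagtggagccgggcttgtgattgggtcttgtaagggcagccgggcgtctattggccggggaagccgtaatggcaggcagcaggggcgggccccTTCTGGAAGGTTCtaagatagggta
HSPA1A: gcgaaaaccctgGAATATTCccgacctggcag
HSPA1B: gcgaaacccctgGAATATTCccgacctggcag
TCP1: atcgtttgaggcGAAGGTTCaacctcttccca
HSPA5: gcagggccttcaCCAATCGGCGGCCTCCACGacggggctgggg
HSP90B1: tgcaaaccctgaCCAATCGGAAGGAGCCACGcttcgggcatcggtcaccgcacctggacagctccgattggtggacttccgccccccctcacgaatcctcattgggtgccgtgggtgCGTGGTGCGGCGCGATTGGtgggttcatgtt

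The TRiC subunit TCP1 lies on the minus strand (the stretch is chr6:159789814-159789845), HSPA5 on the minus strand (chr9:125241379-125241421) and HSP90B1 on the plus strand (chr12:103930204-103930351). The ER stress element was matched in HSPA5 and HSP90B1, 2 of 13 ER promoters (15.4%), and in 0 of 49 cytosolic and 0 of 10 mitochondrial ones, against 0.0806% of all promoters and 0.131% of those of tested genes. The 3-unit heat shock form was matched in 4 of 49 cytosolic promoters (8.16%), those of HSPA8, DNAJA1, DNAJB6 and HSPA6, and in 0 of 13 ER promoters, against 0.487% of all promoters. Among tested genes it was 3 of 41 cytosolic promoters (7.32%), without the untested HSPA6, against 0.299%. A 2-unit form was found in 14 of 49 cytosolic promoters (28.6%), 0 of 13 ER and 2 of 10 mitochondrial ones, against 13.7% of all promoters. Among tested genes it was 10 of 41 cytosolic promoters (24.4%), against 9.86%. DNAJB1 had no match to any heat shock form in its window. That window (chr19:14529222-14529521) lies inside the gene's annotated span, 14514769 to 14560391, and any other start was not searched. Such a match describes the letters of the window and is not a measured binding site. The heat shock stretches shown are all from genes called lower below (adjusted p under 0.05). A 2-unit form was also matched in cytosolic genes that were tested and not called. They were BAG2, CCT4, DNAJA1, DNAJB6, HSPA1L and HSPB1 (log2 fold changes -0.25, -0.19, -0.20, -0.11, 0.06 and 0.14). The windows of HSPA1A (31815293 to 31815592) and HSPA1L (31815234 to 31815533) overlap, so 1 match can count for both. Of 3 tested cytosolic genes with the 3-unit form 1 was called (median log2 fold change -0.20). Of 38 without it 4 were called (median -0.13). A link between match and fold change was not tested.

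In PBS and rhTR11B cells alike, cytosolic genes made up most of the chaperone RNA. Levels are compared between genes per length, in FPKM (counts scaled to gene length and library total). Over the 6 libraries the cytosolic and nuclear genes held 76.0% of the members' summed mean FPKM, the ER genes 13.9% and the mitochondrial genes 8.87%. The order at the top differed between the groups. With PBS, HSPA8 had 882 to 903 FPKM, wholly above the constitutive HSP90 gene HSP90AB1 at 809 to 871 FPKM. With rhTR11B, HSP90AB1 had 754 to 789 FPKM, wholly above HSPA8 at 696 to 745 FPKM. The TRiC subunit CCT5 came next with PBS, at 333 to 358 FPKM, and overlapped with HSP90B1 at 318 to 346 FPKM. With rhTR11B, HSP90B1 came next at 362 to 413 FPKM, above HSPA5 at 288 to 343 and CCT5 at 290 to 318 FPKM, which overlapped with each other. The 10 most abundant members together held 64.3% of the summed FPKM. At the other end, 11 cytosolic members were too low to test, with at most 14 counts in any library, among them the strictly stress-inducible HSPA6 and the small heat shock genes HSPB2, HSPB6, HSPB7 and HSPB8.

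The 73 members that passed the filter on low counts were compared between the groups. With rhTR11B, 6 fell and 0 rose by edgeR's quasi-likelihood test at a Benjamini-Hochberg adjusted p under 0.05 over all 13567 genes tested. The 6 are 8.22% of the tested members, where 3.6% of all tested genes were called, 0.678% lower and 2.92% higher. Before adjustment, 26 members were lower at p under 0.05, where 10.3% of all tested genes were, and 7 were higher, where 13.8% were. By DESeq2 15 members were called lower and 2 higher, where 2.95% and 6.49% of the 11724 genes with an adjusted p were. By limma-voom 6 were called lower and 0 higher, where 0.627% and 2.56% of all tested genes were. The median level of the tested members was 18.5 FPKM, against 6.17 FPKM for all tested genes. Bulk RNA cannot tell fewer expressing cells from less RNA per cell.

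The compartments lay on different sides of 0. The median log2 fold change was -0.13 for 45 cytosolic and nuclear genes, 0.17 for 14 ER genes and -0.06 for 10 mitochondrial genes, beside 0.00 for all tested genes. The mitochondrial median was -0.04 without PBS replicate 2 and -0.08 without PBS replicate 1. Log2 fold changes were negative for 39 of the 45 cytosolic genes, positive for all 14 ER genes and negative for 8 of the 10 mitochondrial genes, where 50% of all tested genes were negative. The rhTR11B libraries lay wholly below the PBS libraries for 23 cytosolic, 0 ER and 2 mitochondrial genes, where this held for 14% of all tested genes, and wholly above them for 0 cytosolic, 9 ER and 0 mitochondrial genes, where it held for 15.1%. The 5 called genes of the cytosol and the 1 of mitochondria all fell, where 0.678% of all tested genes were called lower and 2.92% higher. These counts describe the sets, and no test compared one compartment with another.

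**Figure D1:**
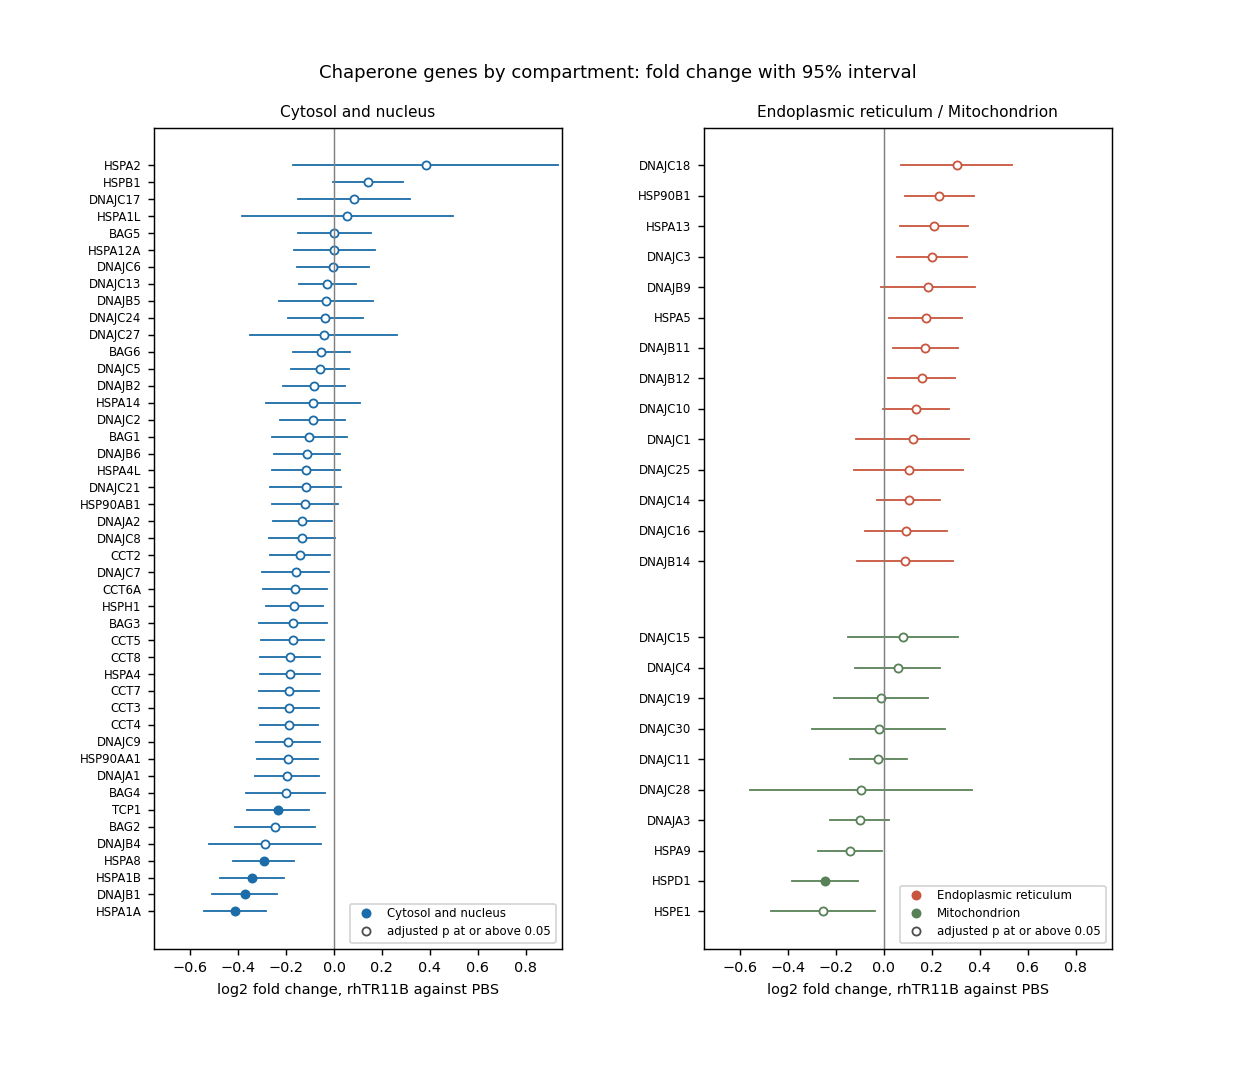
Log2 fold change of rhTR11B against PBS (x axis) for each tested chaperone gene (y axis), cytosolic and nuclear genes on the left, ER and mitochondrial genes on the right, with 95% intervals from edgeR as lines and filled points for an adjusted p under 0.05. All 14 ER points lie right of 0, and the filled points are HSPA1A, DNAJB1, HSPA1B, HSPA8 and TCP1 on the left and HSPD1 on the right.

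The same contrast appeared in the summed levels. The 56 cytosolic genes summed to 12715, 13234 and 13328 CPM in PBS replicates 1 to 3 and to 11918, 11550 and 11279 CPM in rhTR11B replicates 1 to 3. The 14 ER genes summed to 2852, 2761 and 2714 CPM with PBS and to 3034, 2966 and 3475 CPM with rhTR11B, and the 10 mitochondrial genes to 1420, 1547 and 1517 CPM and to 1402, 1286 and 1282 CPM. In each compartment the groups did not overlap, with the rhTR11B libraries lower for the cytosol and mitochondria and higher for the ER. The cytosolic sum was 4.46, 4.79 and 4.91 times the ER sum with PBS and 3.93, 3.89 and 3.25 times with rhTR11B, while its ratio to the mitochondrial sum was 8.76 ± 0.200 and 8.76 ± 0.245 (SD, n = 3 libraries per group). A few abundant genes set these sums, HSPA8, HSP90AB1 and CCT5 in the cytosol, HSPA5 and HSP90B1 in the ER and HSPD1 and HSPA9 in mitochondria.

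**Figure D2:**
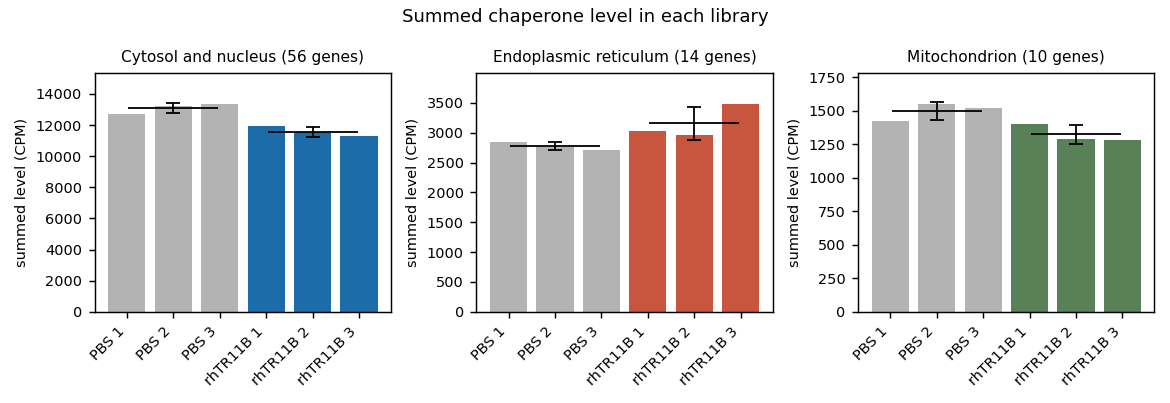
Summed CPM (y axis, from 0) of the cytosolic and nuclear, ER and mitochondrial chaperone genes in each of the 6 libraries (bars), with the group mean and SD in black (n = 3). The rhTR11B bars are below the PBS bars on the left and right and above them in the middle panel, where rhTR11B replicate 3 is highest at 3475 CPM.

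Of 7 tested cytosolic HSP70 genes, 3 fell, where 0.678% of all tested genes were called lower. HSPA8 (chromosome 11, 123057489 to 123062462), which folds new proteins and strips clathrin from vesicles, had 2004, 2037 and 2053 CPM with PBS and 1661, 1687 and 1621 CPM with rhTR11B. The groups were far apart beside a spread of 24.8 and 33.4 CPM (SD, n = 3), and the log2 fold change was -0.29 (SE 0.06, edgeR adjusted p = 0.0195). The stress-inducible HSPA1A (chromosome 6, 31815543 to 31817942) had 97.3, 85.7 and 91.2 CPM with PBS and 68.0, 70.6 and 67.2 CPM with rhTR11B, the largest decrease among the tested members (log2 fold change -0.41, SE 0.06, adjusted p = 0.00264). Its neighbour HSPA1B (chromosome 6, 31827738 to 31830254) had 70.6, 63.6 and 63.5 CPM and then 50.5, 52.2 and 53.3 CPM (log2 fold change -0.34, adjusted p = 0.0113). HSPA1A and HSPA1B can share reads, so their decreases are not separate observations. HSPA14, HSPA12A, HSPA1L and the testis-enriched HSPA2 did not pass, with log2 fold changes of -0.09, 0.00, 0.06 and 0.38. HSPA2 had the highest value among cytosolic members at 0.909 to 1.98 CPM, with a 95% interval of -0.17 to 0.93.

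The J protein DNAJB1 (chromosome 19, 14514769 to 14560391), the HSP40 that brings clients to HSPA1A and HSPA8, had 88.6, 85.4 and 81.9 CPM with PBS and 66.4, 69.9 and 61.3 CPM with rhTR11B (a log2 fold change of -0.37, SE 0.06, adjusted p = 0.00561). It shares 32666 bases of its annotated span with TECR on the other strand, which rose by 0.31 (adjusted p = 0.0473), and the strand setting of the counting is not given in the sources used here. The span of TCP1 shares 615 bases with that of ACAT2. By edgeR DNAJB1 was the 1 called gene among 18 tested cytosolic J proteins, where 0.678% of all tested genes were called lower. The median of the 18 was -0.10. The class A proteins DNAJA1 (-0.20, adjusted p = 0.0767) and DNAJA2 (-0.13, 0.171), general partners of HSPA8, did not pass, although no rhTR11B library reached a PBS library for either gene. None of the other cytosolic J proteins passed by edgeR. Before adjustment 6 of the 18 were lower at p under 0.05, where 10.3% of all tested genes were. DESeq2 called 2 lower, DNAJB1 and DNAJA1, where 2.95% of the genes with an adjusted p were. DNAJB4 had -0.29 (edgeR adjusted p = 0.122). DNAJC9 had -0.19 (adjusted p = 0.0821) and DNAJC7 -0.16 (0.151), while the auxilin gene DNAJC6 had -0.00, the synaptic vesicle chaperone gene DNAJC5 -0.06 and the endosomal DNAJC13 -0.03. For DNAJC6 the 95% interval ran from -0.15 to 0.15.

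The TRiC ring is built of 8 different subunits, here read from TCP1 and CCT2 to CCT8, with CCT6A for the sixth. All 8 had lower means with rhTR11B, with log2 fold changes between -0.24 and -0.14, and for all 8 the groups did not overlap, where 14% of all tested genes were lower in this way. TCP1 (chromosome 6, 159778498 to 159789602) fell, from 384, 421 and 405 CPM to 360, 343 and 325 CPM (log2 fold change -0.24, SE 0.06, adjusted p = 0.0438). CCT4 (-0.19, adjusted p = 0.0647), CCT3 (-0.19, 0.0720), CCT7 (-0.19, 0.0745), CCT8 (-0.18, 0.0773), CCT5 (-0.17, 0.104), CCT6A (-0.16, 0.131) and CCT2 (-0.14, 0.159) did not pass. DESeq2 called 6 of the 8 lower, where 2.95% of the 11724 genes with an adjusted p were. The 8 values are close to one another, and each 95% interval, such as -0.27 to -0.02 for CCT2, holds the others. The testis-enriched CCT6B had 7 to 14 counts and was not tested.

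Neither cytosolic HSP90 gene passed, though HSP90AA1 had p under 0.05 before adjustment and was called lower by DESeq2. The inducible HSP90AA1 had 935, 985 and 987 CPM with PBS and 861, 813 and 866 CPM with rhTR11B (log2 fold change -0.19, adjusted p = 0.0709). HSP90AB1 had 2297, 2418 and 2492 CPM and then 2271, 2134 and 2222 CPM (-0.12, adjusted p = 0.263), so its lowest PBS library was little above its highest rhTR11B library. The nucleotide exchange factors HSPA4 (-0.18, adjusted p = 0.0764), HSPH1 (-0.17, 0.0875) and HSPA4L (-0.12, 0.294) of the HSP110 family did not pass with edgeR. Before adjustment 2 of the 3 were lower at p under 0.05, where 10.3% of all tested genes were. Those called lower by DESeq2 numbered 2, where 2.95% of the genes with an adjusted p were. Among 6 BAG genes the number called was 0 by edgeR, DESeq2 and limma-voom. Of these 6, 3 were lower at an unadjusted p under 0.05, where 10.3% of all tested genes were. BAG2 had -0.25 (adjusted p = 0.0764), BAG4 -0.20 (0.129) and BAG3, the stress-inducible member that works in selective autophagy, -0.17 (0.129), while BAG5 had 0.00 and BAG6 -0.05. The small heat shock gene HSPB1 was the most abundant of the 6 cytosolic members with a positive value, at 65.6, 59.1 and 70.7 CPM with PBS and 71.8, 75.7 and 68.2 CPM with rhTR11B (0.14, adjusted p = 0.219), and its groups overlapped.

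The calls of these 5 cytosolic genes changed mostly with the PBS libraries. Without PBS replicate 3 the adjusted p of HSPA1A was 0.0572, of DNAJB1 0.0641, of HSPA1B 0.0833, of HSPA8 0.145 and of TCP1 0.186. Without PBS replicate 2 HSPA1A passed (adjusted p = 0.0134), and DNAJB1 (0.0542), HSPA1B (0.0524), HSPA8 (0.165) and TCP1 (0.217) did not. TCP1 also missed the threshold without PBS replicate 1 (0.0588) and without rhTR11B replicate 2 (0.0800). Without rhTR11B replicate 3, the library that stood apart, all 5 passed, with HSPA8 at adjusted p = 0.000489 and TCP1 at 0.0271. The fold changes moved little, from -0.31 to -0.28 for HSPA8 and from -0.46 to -0.37 for HSPA1A over the 6 fits.

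**Figure D3:**
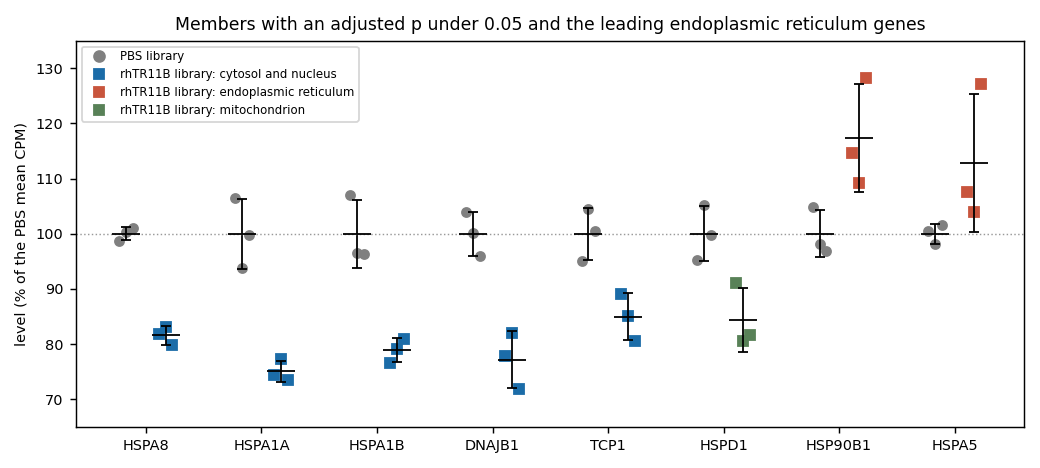
Level of the 6 called members and of HSP90B1 and HSPA5 in each library (points) as a percentage of the gene's PBS mean CPM (y axis, not from 0), circles for PBS and squares for rhTR11B, with group mean and SD in black (n = 3). The rhTR11B squares of the 6 called genes lie below every PBS circle, and those of HSP90B1 and HSPA5 lie above, with rhTR11B replicate 3 the highest.

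Neither heat shock factor passed. HSF1, which drives the heat shock genes, had 102, 103 and 103 CPM with PBS and 103, 99.3 and 98.2 CPM with rhTR11B, with a log2 fold change of -0.04 and a 95% interval of -0.15 to 0.08 (adjusted p = 0.724). HSF2 had 21.3, 21.7 and 21.2 CPM and then 21.8, 20.6 and 19.5 CPM (-0.05, interval -0.21 to 0.11, adjusted p = 0.719). The groups overlapped for both genes. HSF1 is mainly controlled through its protein, which RNA counts do not measure.

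None of the 14 ER chaperone genes passed by edgeR, where 2.92% of all tested genes were called higher. Before adjustment 7 of the 14 were higher at p under 0.05, where 13.8% of all tested genes were. DESeq2 called 2 higher, HSP90B1 and HSPA13, where 6.49% of the 11724 genes with an adjusted p were, and limma-voom 0. HSP90B1 (chromosome 12, 103930410 to 103947926), which folds integrins and Toll-like receptors, had 958, 896 and 885 CPM with PBS and 1047, 998 and 1170 CPM with rhTR11B (a log2 fold change of 0.23, SE 0.07, adjusted p = 0.0611). HSPA5 (chromosome 9, 125234853 to 125241343), the main ER HSP70, had 1083, 1058 and 1095 CPM and then 1161, 1120 and 1371 CPM (0.17, adjusted p = 0.151). For both genes the groups did not overlap, and rhTR11B replicate 3 was well above the other libraries. HSPA13, a small HSP70 of the ER, had 107, 110 and 93.2 CPM with PBS and 115, 117 and 126 CPM with rhTR11B (0.21, adjusted p = 0.0759).

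The J proteins of the ER had positive values as well, and none passed. The lumenal DNAJB11, a partner of HSPA5, had 74.0, 68.7 and 70.3 CPM with PBS and 77.2, 76.6 and 86.6 CPM with rhTR11B (0.17, adjusted p = 0.110). DNAJC3, which also restrains the kinase PERK, had 0.20 (adjusted p = 0.0893), the disulfide reductase DNAJC10 0.13 (0.212) and DNAJB9, which represses the stress sensor IRE1, 0.18 (0.239). The membrane J proteins DNAJB12 (0.16, adjusted p = 0.154), DNAJC14 (0.10, 0.330) and DNAJB14 (0.09, 0.601) did not pass either. Without rhTR11B replicate 3 the values were 0.08 for DNAJB12, 0.06 for DNAJC14 and 0.115 for DNAJB11. The highest value was that of the little expressed DNAJC18, at 8.23, 8.78 and 7.03 CPM and then 10.3, 9.73 and 9.63 CPM (0.30, adjusted p = 0.104), and the lowest that of DNAJB14.

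The third rhTR11B library was the highest of the 6 for 12 of the 14 ER genes, and PBS replicate 3 the lowest for 10. Without rhTR11B replicate 3 the ER median was 0.08 against 0.17 with all libraries, and 12 of the 14 values were positive, with HSP90B1 at 0.16 (adjusted p = 0.0571) and HSPA5 at 0.08 (0.358). That library was also the lowest for 30 of the 45 cytosolic genes, and without it the cytosolic median was -0.11. Leaving out rhTR11B replicate 1 gave the highest ER median, 0.21, with HSP90B1 past the threshold (adjusted p = 0.0480). Without PBS replicate 3 DNAJB14 turned to -0.04.

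**Figure D4:**
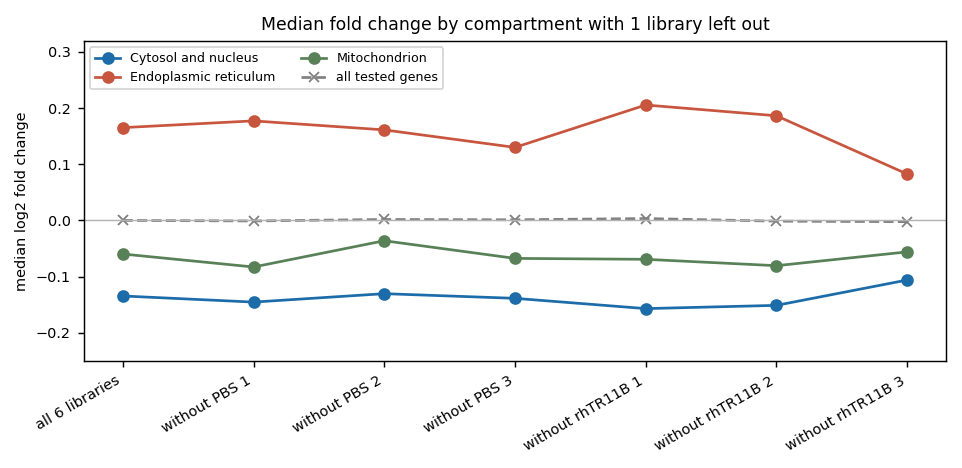
Median log2 fold change (y axis) of the cytosolic and nuclear, ER and mitochondrial chaperone genes and of all tested genes, with all 6 libraries and with each library left out (x axis). The ER median ranges from 0.08 to 0.21 and is lowest without rhTR11B replicate 3, the cytosolic median stays between -0.16 and -0.11, the mitochondrial median between -0.08 (without PBS replicate 1) and -0.04 (without PBS replicate 2), and all tested genes stay at 0.00.

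Among 10 mitochondrial chaperone genes, 1 fell, where 0.678% of all tested genes were called lower. HSPD1 (chromosome 2, 197486584 to 197500274), the HSP60 that forms the folding chamber of the matrix, had 687, 759 and 720 CPM with PBS and 657, 581 and 589 CPM with rhTR11B (a log2 fold change of -0.25, SE 0.07, adjusted p = 0.0473). HSPE1 (chromosome 2, 197500379 to 197503449), the lid of that chamber, had 24.3, 32 and 23.3 CPM and then 22.2, 23.8 and 20.7 CPM, a like value of -0.26 that did not pass (adjusted p = 0.140), and its groups overlapped. Without PBS replicate 2, HSPE1 had -0.10 and HSPD1 -0.21. The genes lie head to head on opposite strands with 104 bases between their annotated ends, and the stretch between them, chr2:197500275-197500378 read on the minus strand, holds none of the searched heat shock forms.
HSPD1: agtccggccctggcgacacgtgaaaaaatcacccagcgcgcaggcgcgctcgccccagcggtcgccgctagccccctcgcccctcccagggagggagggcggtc

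HSPA9, the HSP70 that pulls proteins into the matrix, had 492, 535 and 546 CPM with PBS and 505, 466 and 456 CPM with rhTR11B (-0.14, adjusted p = 0.183), with overlapping groups. The number called among 7 mitochondrial J proteins was 0 by edgeR, DESeq2 and limma-voom, 0 had p under 0.05 before adjustment, and their values ran from -0.10 for DNAJA3 to 0.08 for DNAJC15, with DNAJC11 at -0.02 and DNAJC4 at 0.06. HSPD1 did not pass without any 1 of PBS replicates 1, 2 and 3 (adjusted p = 0.0649, 0.224 and 0.187) or without rhTR11B replicate 2 (0.121). The mitochondrially encoded genes, which these chaperones do not include, had positive log2 fold changes for all 13, with a median of 0.33. By edgeR 3 of the 13 were called higher, where 2.92% of all tested genes were. Their share of counts was highest in rhTR11B replicate 3 (10.4%), and their median without that library was not taken.

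Abundant members had lower fold changes than scarce ones, except in the ER. Across the 73 tested members the rank correlation of log2 fold change with mean FPKM was -0.45, and it was -0.49 within 45 cytosolic, -0.71 within 10 mitochondrial and 0.25 within 14 ER genes, against -0.25 across all 13567 tested genes. The points share their libraries, and genes are not independent replicates, so these values are a description only. Among genes above 100 FPKM, HSP90B1 and HSPA5 of the ER stood at 0.23 and 0.17, and the cytosolic and mitochondrial ones between -0.29 and -0.12.

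**Figure D5:**
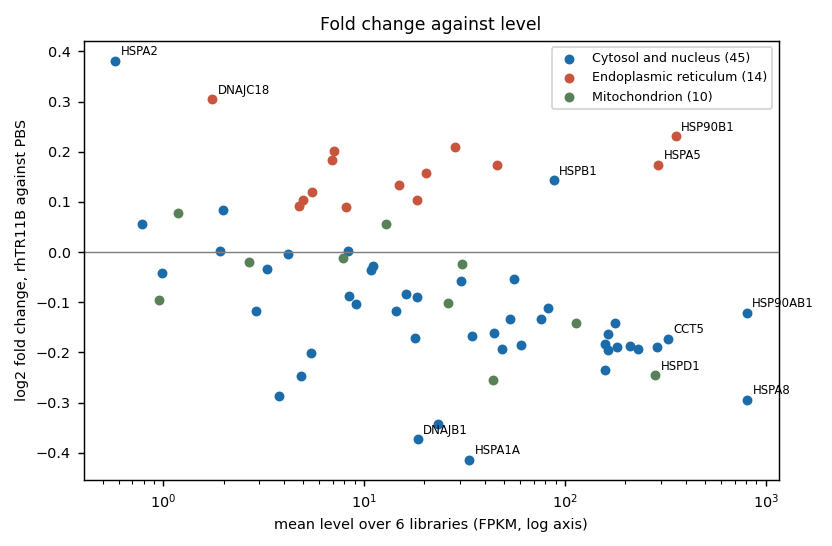
Log2 fold change of rhTR11B against PBS (y axis) by mean FPKM over the 6 libraries (x axis, log scale) for 45 cytosolic and nuclear, 14 ER and 10 mitochondrial genes (points). At the right side HSPA5 and HSP90B1 lie above 0 and HSPA8, HSP90AB1, CCT5 and HSPD1 below it.

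Partners outside the member families were read from 4 further lists. Of 14 co-chaperones of cytosolic HSP70 and HSP90, all 14 had negative values with a median of -0.17, where 50% of all tested genes were negative. Among them 2 fell, where 0.678% of all tested genes were called lower. CHORDC1, an HSP90 partner, had 82.3, 85.9 and 73.8 CPM with PBS and 62.6, 62.9 and 59.8 CPM with rhTR11B (a log2 fold change of -0.38, SE 0.07, adjusted p = 0.00561). Its promoter window held 3 overlapping matches to the 3-unit heat shock form. The windows of the other genes on these lists were not read, so no share stands beside it. FKBP4, an immunophilin of steroid receptor complexes, went from 155 ± 4.53 to 133 ± 4.70 CPM (SD, n = 3; -0.22, adjusted p = 0.0460). The HSP90 activator AHSA1 (-0.21, adjusted p = 0.0554) and the HSP70 to HSP90 adaptor STIP1 (-0.19, 0.0565) did not pass. Of 8 prefoldin subunits and TRiC helpers, which hand actin and tubulin to the ring, 0 passed by edgeR. Before adjustment 4 were lower at p under 0.05, where 10.3% of all tested genes were. DESeq2 called 1 lower, where 2.95% of the genes with an adjusted p were, and limma-voom 0. All 8 were negative, with a median of -0.18, led by PDCL3 at -0.26 (adjusted p = 0.0799), PFDN2 at -0.25 (0.0707) and VBP1 at -0.24 (0.104). Leaving out rhTR11B replicate 3 gave -0.15 for VBP1, and leaving out PBS replicate 2 gave -0.13.

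Of 18 genes of ER folding and the unfolded protein response, 3 rose, where 2.92% of all tested genes were called higher. The median was 0.16, and 15 were positive, where 50% of all tested genes were negative. The disulfide isomerase PDIA3 had 570, 534 and 543 CPM with PBS and 625, 618 and 747 CPM with rhTR11B (0.27, adjusted p = 0.0451). SIL1, the exchange factor of HSPA5, went from 25.1 ± 1.06 to 30.6 ± 2.55 CPM (0.28, adjusted p = 0.0496) and ATF6, the sensor that acts on the ER stress element, from 90.2 ± 1.80 to 106 ± 7.14 CPM (0.23, adjusted p = 0.0451). The other regulators on the list did not pass, with XBP1 at -0.01 (adjusted p = 0.969), ATF4 at -0.06 (0.625) and DDIT3, the target gene of prolonged stress, at -0.23 (0.130). Before adjustment 10 of the 18 were higher at p under 0.05, where 13.8% of all tested genes were. In the same way 1 was lower, where 10.3% were. It was DDIT3, whose rhTR11B libraries lay wholly below the PBS libraries. Among 10 mitochondrial partners and proteases 0 passed by edgeR, DESeq2 and limma-voom. Before adjustment 2 were lower at p under 0.05, where 10.3% of all tested genes were. They were the protease subunit CLPP at -0.21 (adjusted p = 0.0874) and the iron-sulfur J protein HSCB at -0.27 (0.133). TRAP1, the mitochondrial HSP90, had -0.10 (0.256), and the list's median was -0.05. Without PBS replicate 2 the adjusted p was 0.0717 for CHORDC1, 0.182 for FKBP4, 0.207 for PDIA3, 0.207 for SIL1 and 0.189 for ATF6. Without PBS replicate 3 CHORDC1 passed (0.0342), and FKBP4 (0.196), PDIA3 (0.195), SIL1 (0.187) and ATF6 (0.168) did not. Without PBS replicate 1 CHORDC1 passed as well (0.0281), and FKBP4 (0.0796), PDIA3 (0.0710), SIL1 (0.0767) and ATF6 (0.104) did not. Without rhTR11B replicate 3 PDIA3 had 0.18 and SIL1 and ATF6 missed the threshold (0.10 and 0.0601). Without rhTR11B replicate 2 FKBP4 and SIL1 missed it (0.121 and 0.0807). SIL1 was also lost with limma-voom (0.0547), with library size alone (0.0605) and without the mitochondrially encoded genes (0.0503), and ATF6 with library size alone (0.0549). At a mean of at least 5 CPM SIL1 (0.0568), PDIA3 (0.0557), FKBP4 (0.0544) and ATF6 (0.0515) were lost.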

How the data were processed

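The authors deposited read counts per gene symbol and FPKM values. The submitters' processing notes name fastp, HISAT, HTSeq, DESeq2, R 3.2.0 and the build GRCh38, without their roles. Annotation and strand setting: not given in the sources used here. The gene length implied by count, FPKM and library total was the same in each library, to a relative 0.001, for 100% of nonzero counts. That length came from the same values and was not checked against an annotation. Members, compartments and lists were chosen with earlier results of these data known. From the counts, edgeR 4.0.16 (R 4.3.3) was run on all genes kept by filterByExpr (minimum count 10), with TMM scaling, group as the only term and Benjamini-Hochberg adjustment. CPM use TMM-scaled library sizes, and an SE is the fold change on the log2 scale over the root of its F statistic. Members were named in full when called, when among the 6 most abundant of a compartment, when at either end of its fold changes, or as HSF1, HSF2 or TRiC subunits, as were called list genes and the 3 smallest p of each list. Others were named for their role, some after their values were seen. Alternatives used DESeq2 1.42.0 and limma 3.58.1. Coordinates, found for 83 members, are those of RefSeq GRCh38.p14. Library pairs of the same group had a chi-square per degree of freedom of 5.33 to 26.1, and none was merged.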

Additional observations from a re-analysis of the deposited data

How the results depend on the processing

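The 6 decreases (HSPA8, HSPA1A, HSPA1B, DNAJB1, TCP1, HSPD1) were called with DESeq2 size factors, library size alone, limma-voom, DESeq2 and without the mitochondrially encoded genes, and HSPD1 and TCP1 were lost at a mean of at least 5 CPM. The number of members called lower was 15 with DESeq2, 17 with no filter, 3 with either pseudocount (1 or 0.1) on FPKM of at least 1, 0 on log2(FPKM + 1) with no filter, 16 at adjusted p under 0.1 and 2 under 0.01. Members called higher were 2 with DESeq2, 2 with no filter and 3 at adjusted p under 0.1. Over all genes, higher and lower calls were 761 and 346 with DESeq2, 940 and 483 with no filter, 205 and 26 at a mean of at least 5 CPM, 62 and 21 on log2(FPKM + 1), 64 and 22 on log2(FPKM + 0.1), 0 and 0 on log2(FPKM + 1) with no filter, 1056 and 556 at adjusted p under 0.1 and 45 and 5 under 0.01, against 396 and 92. On FPKM of at least 1, FKBP4, PDIA3, SIL1 and ATF6 were lost too (adjusted p 0.0732 to 0.0931). The cause of these differences was not tested.

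With 1 library left out, members called lower ranged from 0 to 10 and higher from 0 to 1, all genes called higher from 9 to 903 and lower from 3 to 427, the ER median from 0.0827 to 0.2056, and DNAJB14 from -0.0392 (without PBS replicate 3) to 0.1975. At a mean of at least 5 CPM, 9 mitochondrial genes had a median of -0.0129. The cytosolic median stayed negative and the ER median positive under every alternative run. Same-numbered libraries correlated in their deviations from the group mean at -0.10, 0.05 and -0.01. With 3 libraries per group, these values cannot show whether same-numbered libraries shared a batch. With the replicate block 774 genes were called higher and 252 lower, against 396 and 92 without it. Among members 1 was called higher and 7 lower, against 0 and 6. Depth was not varied, and the 11 untested members had too few counts to test.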
